A study of Mus musculus with 12 samples.

Results

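The growth hormone and IGF axis of the liver was described here in 10 genes, Ghr, Stat5b, Socs2, Cish, Bcl6, Cux2, Igf1, Igfals, Igfbp1 and Igfbp2, out of 24062 genes in the count tables. These genes were chosen by name as members of the pathway, with earlier results of the same comparison known. Their values are therefore given as a description, and no p-value of the difference between the diets is printed for any of them. The study fed mice a diet with BIBB-515, an inhibitor of lanosterol synthase in the cholesterol synthesis pathway, to ask how blocking this enzyme changes cholesterol, glucose and liver gene expression. RNA-seq counts of 12 livers were analysed, 6 from mice on the control diet (replicate numbers 1 to 6) and 6 from mice on the BIBB-515 diet (replicate numbers 6 to 11).

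All mice were female C57BL/6J, an inbred strain, were obtained at 6 weeks of age and were acclimated for 2 weeks. The 2 diets differed in the compound, given at 55 mg/kg for 10 days, and a run-in on the control diet came first for both groups, with allocation at random. Animals shared cages, and the labels give neither the cage nor a sequencing batch. The study collected blood after several hours of fasting. The hour at which the livers were taken, and whether the animals were still fasted at that point, are not given in the sources used here. Males were not studied, and circulating growth hormone, IGF1 and insulin are not measured by these files.

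Growth hormone from the pituitary binds the growth hormone receptor (Ghr) on hepatocytes, whose kinase JAK2 then phosphorylates STAT5B, which enters the nucleus and activates genes such as Igf1, Igfals, Socs2 and Cish. SOCS2 and CISH are feedback inhibitors of the same receptor, IGF1 and the acid-labile subunit (Igfals) form the circulating growth factor complex, and IGFBP1 and IGFBP2 are binding proteins whose liver expression rises when insulin is low. Rodent growth hormone is released in pulses in males and more continuously in females, and CUX2 and BCL6 are transcription factors through which this sex difference shapes liver expression, CUX2 in females and BCL6 mainly in males.

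Depth ranged from 22764819 to 31058370 reads counted on genes per mouse, and the 20 most highly counted genes took 27.7% to 29.8% of the counts in the control mice and 23.6% to 25.2% in the BIBB-515 mice. The summed level of 7 hepatocyte markers was 142317 to 159751 CPM in the control mice and 107773 to 122523 CPM in the BIBB-515 mice. CPM are counts scaled to a common library size by the TMM method. Of these 7 markers 2, Alb and Ttr, were past the threshold and lower, and the others were not past it. A sum of CPM is weighted toward the most abundant genes in it. Of the other marker lists, Lrat among 5 stellate cell markers was also lower, and none of the Kupffer cell and leukocyte (329 to 513 against 323 to 527 CPM), endothelial (130.2 to 177 against 124 to 172 CPM) or bile duct markers (62.6 to 116 against 91.9 to 154 CPM) passed the threshold. The stellate markers summed to 166 to 225 CPM against 172 to 236 CPM. Fat markers stayed at or below 0.282 CPM in every mouse, with Lep at 0. In RNA of whole liver, fewer cells of a type and less RNA per cell cannot be told apart, and the part of the lower hepatocyte marker sum in the values below was not tested.

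All 10 genes were counted well enough to be tested, which required 1 CPM or more in 2 or more of the 12 mice. Of them 4 were past an FDR of 0.05 in edgeR's quasi-likelihood test of all 12481 tested genes, Ghr, Socs2, Cux2 and Igf1, and each of these was lower with BIBB-515. Over all tested genes 13.7% were past this threshold, 6.48% lower and 7.18% higher. The values of the groups did not overlap for Ghr and Cux2, both lower, a pattern that 2.72% of all tested genes showed in that direction and 7.07% in either direction. The log2 fold change was below 0 for 9 of the 10 genes, with a median of -0.61 over the 10 against -0.01 over all tested genes. Because the genes were listed with this contrast known, nothing is read from their count against the background.

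**Figure D1:**
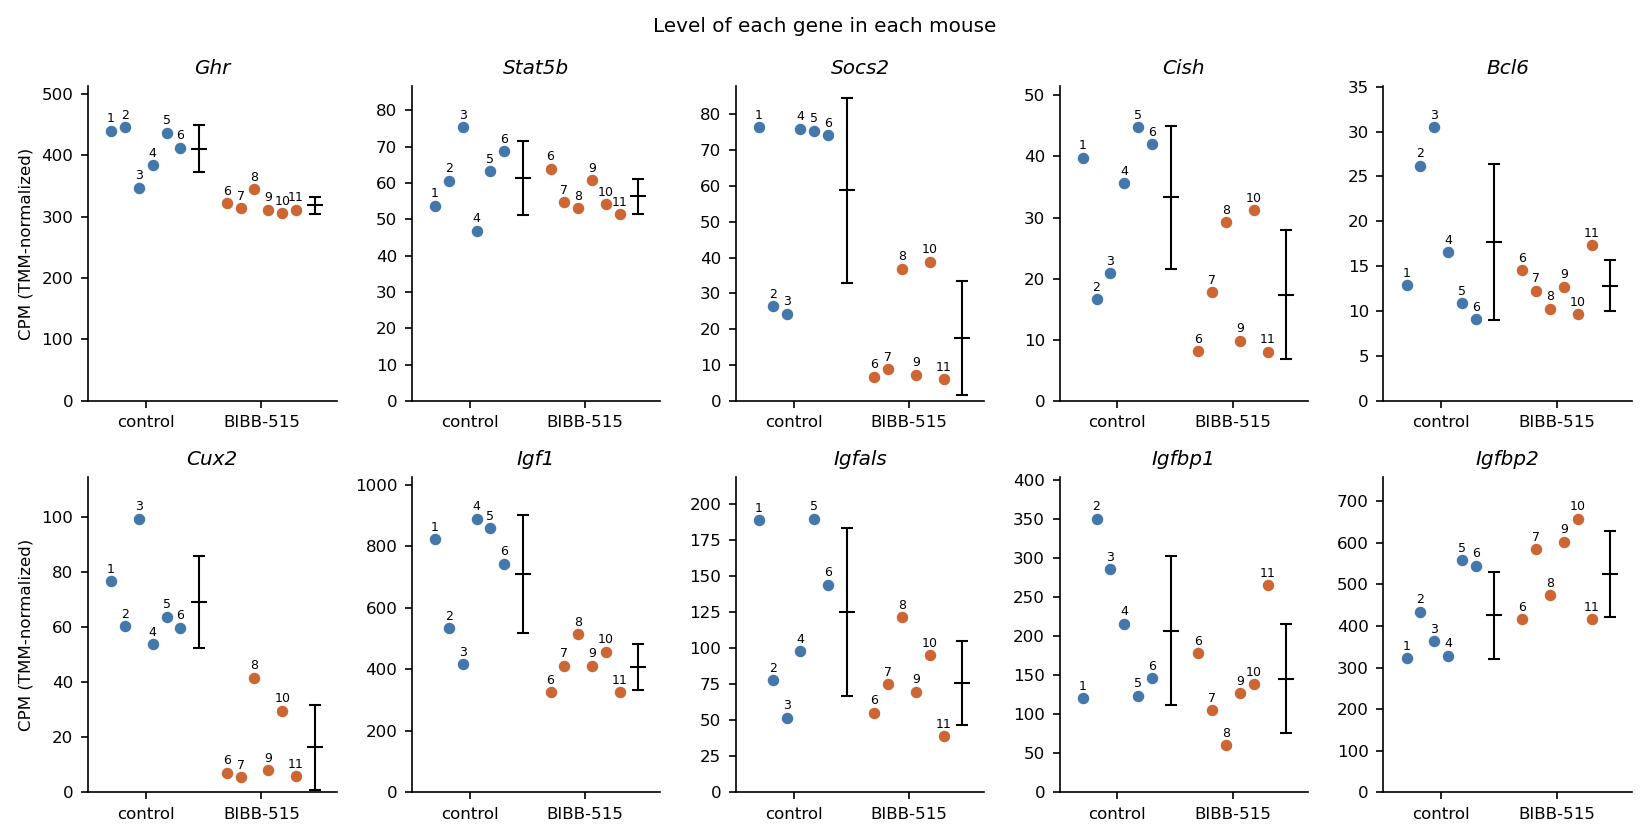
Level of each of the 10 genes in CPM, in 6 control mice (blue) and 6 BIBB-515 mice (orange), with the replicate number above each point and the mean and SD of the diet in black beside the points. Ghr and Cux2 do not overlap between the diets, and Socs2 is at 24.4 and 26.4 CPM in control mice 3 and 2 and at 36.9 and 38.9 CPM in BIBB-515 mice 8 and 10, away from the other mice of each diet.

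The genes differed widely in level. Per kilobase of exon, Igfbp2 was the highest in the control mice at 321 ± 79.4 CPM per kb (SD, n = 6), above Igfbp1 at 136 ± 62.3, Igf1 at 90.9 ± 24.6, Ghr at 90.9 ± 8.60 and Igfals at 59.3 ± 27.7 CPM per kb. The regulators were lower, with Socs2 at 21.8 ± 9.60, Cish at 15.4 ± 5.42, Cux2 at 13.5 ± 3.28, Stat5b at 11.3 ± 1.88 and Bcl6 at 5.39 ± 2.65 CPM per kb. Only Igfbp2 and Igfbp1 were apart in this order, and the ranges of every other pair of neighbors overlapped. With BIBB-515, Cux2 was at 3.20 ± 3.03 CPM per kb, next to Bcl6 at 3.90 ± 0.87 CPM per kb. All counts of the 10 genes were between 145 and 22114 reads, no exon of another gene overlaps theirs, and their counts in the tables of primary alignments were nearly the same.

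The receptor was the member with the least spread between mice. Ghr, on chromosome 15 from 3317755 to 3583352 (mm10, minus strand), was between 347 and 445 CPM in the control mice with a median of 424, and between 306 and 344 CPM in the BIBB-515 mice with a median of 313. The lowest control mouse, mouse 3, was only just above the highest BIBB-515 mouse, mouse 8, and no value of the groups crossed. The mean fell from 411 ± 38.9 to 318 ± 14.03 CPM (SD, n = 6 each), and the log2 fold change was -0.37 (standard error 0.07), with the call kept in all 19 alternative fits, with values between -0.40 and -0.34. Stat5b, the transcription factor that carries the signal and lies on chromosome 11 from 100780731 to 100850585, was between 46.9 and 75.4 CPM with a median of 62.0 in the control mice and between 51.4 and 63.9 CPM with a median of 54.4 in the BIBB-515 mice. The BIBB-515 mice all lay within the range of the control mice, and the log2 fold change of -0.13 (standard error 0.10) was not past the threshold.

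The exons of Ghr were read separately, since the gene gives rise to a full-length receptor and, from a shorter transcript with its own last exon, to the soluble growth hormone binding protein. That exon, on chromosome 15 from 3327525 to 3327686 and 162 bases long, held 5.04 ± 0.70% (SD, n = 6) of the exon counts of Ghr in the control mice and 5.70 ± 0.56% (SD, n = 6) in the BIBB-515 mice, with overlapping ranges. The last exon of the full-length transcript, from 3317755 to 3320722, held 43.2% to 48.8% in the control mice and 40.6% to 41.8% in the BIBB-515 mice, with a mean of 45.8 ± 2.03% against 41.3 ± 0.55% (SD, n = 6 each), and it was not past the threshold of edgeR's exon usage test. The first exon, of 353 bases, had a share of 1.48 ± 0.22% in the control mice and 1.89 ± 0.26% in the BIBB-515 mice, not past the threshold. Of the 92 exon rows of the 10 genes 79 were tested and 0 had an FDR under 0.05 in edgeR's exon test, 1 had an unadjusted p under 0.05, and over all 67376 tested exons 11 were past the threshold, 0.0163%.

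**Figure D2:**
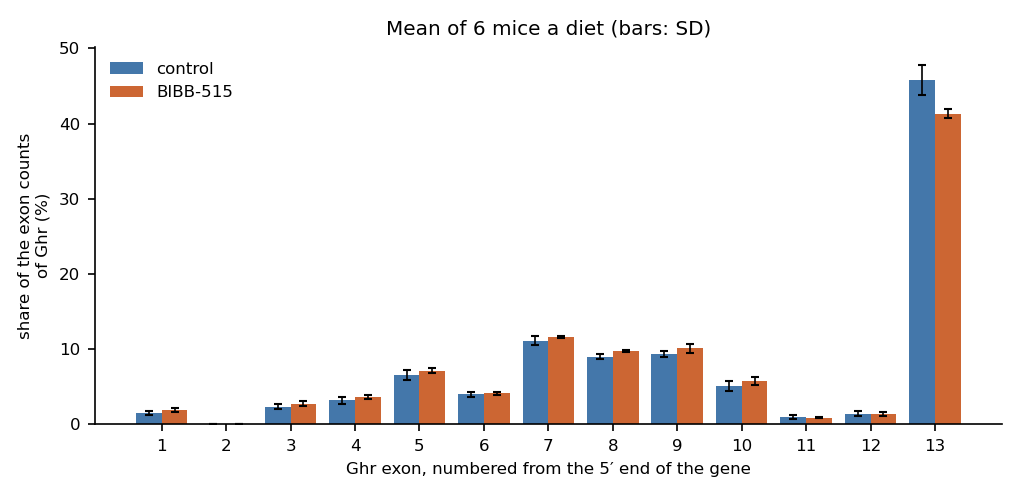
Share of the exon counts of Ghr on each of its 13 exons in percent, numbered from the 5′ end, as the mean of 6 control mice (blue) and 6 BIBB-515 mice (orange) with SD. Exon 13, the last of the full-length transcript, is at 45.8% and 41.3%, and exon 10, the last of the short transcript, at 5.04% and 5.70%.

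The shares of the Igf1 exons differed in the same direction. Its last exon, of 6373 bases, held 61.2 ± 3.66% of the exon counts in the control mice and 55.0 ± 3.05% in the BIBB-515 mice (SD, n = 6 each), with overlapping ranges, while its 2 alternative first exons held 4.07 ± 0.47% and 2.39 ± 0.23% against 4.56 ± 0.35% and 2.75 ± 0.28%. Neither first exon passed the exon test. Over 5721 genes with at least 3 exons and at least 500 exon counts in every mouse, the median share of the last exon was 33.6% to 39.8% in the control mice and 32.9% to 38.1% in the BIBB-515 mice, so it varied between libraries more than between diets, and 74.5% of these genes had a lower mean share with BIBB-515. The median difference over these genes was -0.69 percentage points, against -4.44 for Ghr and -6.18 for Igf1. The other members among them were at -2.15 (Stat5b), -0.54 (Igfbp1) and -0.70 (Igfbp2). The part of this library property in the shares of Ghr and Igf1 was not tested.

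Of the feedback inhibitors, Socs2 fell and also had the wider relative spread between mice of the same diet. Socs2, on chromosome 10 from 95411490 to 95416857, was between 24.4 and 76.4 CPM in the control mice with a median of 74.8, and between 6.12 and 38.9 CPM in the BIBB-515 mice with a median of 8.10. The control mice 1, 4, 5 and 6 lay within 74.2 to 76.4 CPM while mice 2 and 3 were at 26.4 and 24.4 CPM, and the BIBB-515 mice 6, 7, 9 and 11 lay within 6.12 to 8.88 CPM while mice 8 and 10 were at 36.9 and 38.9 CPM. The groups therefore overlapped, and BIBB-515 mice 8 and 10 were above control mice 2 and 3.

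The mean of Socs2 fell from 58.8 ± 25.9 to 17.5 ± 15.9 CPM (SD, n = 6 each), and the log2 fold change was -1.75 (standard error 0.51), or 0.297 of the control level. This call was lost in 8 of the 12 fits that each left out 1 mouse, those without control mouse 1, 4, 5 or 6 or without BIBB-515 mouse 6, 7, 9 or 11, where the log2 fold change was -1.67 to -1.58. Cish, on chromosome 9 from 107296689 to 107301961, ranged from 16.6 to 44.8 CPM with a median of 37.7 in the control mice and from 8.08 to 31.2 CPM with a median of 13.8 in the BIBB-515 mice. The mice that stood apart were the same as for Socs2, with control mice 2 and 3 at 16.6 and 20.9 CPM and BIBB-515 mice 8 and 10 at 29.2 and 31.2 CPM. The log2 fold change of Cish, -0.93 (standard error 0.36), was not past the threshold, although all 6 BIBB-515 mice were below the control mean, and it was past it in a fit with 1 surrogate variable as covariate (-0.99).

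Cux2 was the member with the largest difference between the diets. Cux2, on chromosome 5 from 121860216 to 122047825, was between 53.9 and 99.6 CPM in the control mice with a median of 62.2, and between 5.59 and 41.7 CPM in the BIBB-515 mice with a median of 7.69. Every BIBB-515 mouse was below every control mouse, 4 of them at 8.18 CPM or less and mice 8 and 10 at 41.7 and 29.7 CPM. The mean fell from 69.1 ± 16.8 to 16.4 ± 15.5 CPM (SD, n = 6 each), and the log2 fold change was -2.08 (standard error 0.46), or 0.237 of the control level. The call was kept in each of the 12 fits without 1 mouse, with values from -2.61 to -1.90. Control mice 2 and 3, the lowest of their diet for Socs2, were at 60.4 and 99.6 CPM for Cux2, within the control range and at its top.

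Bcl6, a repressor with a male bias in liver, was high in the control mice in which Socs2 and Cish were low, and in the BIBB-515 mice its order was the reverse of theirs. Bcl6, on chromosome 16 from 23965052 to 23988612, was between 9.13 and 30.5 CPM with a median of 14.8 in the control mice and between 9.65 and 17.4 CPM with a median of 12.5 in the BIBB-515 mice. Control mice 2 and 3 were the highest at 26.2 and 30.5 CPM, and BIBB-515 mice 8 and 10 were the lowest of their diet at 10.3 and 9.65 CPM. The log2 fold change was -0.47 (standard error 0.26) and was not past the threshold.

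Bcl6 is also the member with the most STAT-type elements near an annotated start, and its windows are shown for that reason. The element searched was TTCNNNGAA, the palindromic core to which STAT5 binds, in the 250 bases before each RefSeq transcript start (GRCm38.p6). It is its own reverse complement, so both strands are covered. Of 32851 such windows over all genes 7.02% held it and 0.317% held it at least 2 times. A window was present for 9 of the 10 members, all but Socs2, and 4 of their 16 windows, in Bcl6 and Igfals, held the element. The window of the upstream start of Bcl6 (chr16:23988853-23989102, minus strand) and that of an internal start (chr16:23981284-23981533, minus strand) follow 5′ to 3′ from the RefSeq table, with the elements in capitals.
Bcl6, upstream start: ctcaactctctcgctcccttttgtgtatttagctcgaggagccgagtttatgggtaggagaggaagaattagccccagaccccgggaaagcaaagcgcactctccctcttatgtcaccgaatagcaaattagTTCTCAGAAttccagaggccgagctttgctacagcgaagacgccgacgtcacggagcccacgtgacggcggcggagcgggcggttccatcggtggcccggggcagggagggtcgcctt
Bcl6, internal start: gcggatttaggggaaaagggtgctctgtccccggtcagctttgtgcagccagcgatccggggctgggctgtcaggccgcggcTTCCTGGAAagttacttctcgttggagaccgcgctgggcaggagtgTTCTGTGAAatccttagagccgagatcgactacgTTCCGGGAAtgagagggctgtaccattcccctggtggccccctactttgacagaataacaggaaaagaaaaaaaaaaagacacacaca

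The 3 elements of the internal start began 168, 122 and 88 bases before it, and the element of the upstream start began 118 bases before it. No counted exon of Bcl6 begins at the internal start, so its use in these livers is not shown. In Igfals, TTCTCAGAA began 236 bases before the first annotated start and TTCCTAGAA 58 bases before the second (chr17:24877594-24877843 and chr17:24877981-24878230, plus strand). No counted exon of Igfals begins at either of these starts. The window of its last annotated start (chr17:24878497-24878746), the nearest to its first counted exon, held no element. No match was found in the windows of Ghr, Stat5b, Cish, Cux2, Igf1, Igfbp1 and Igfbp2. The window of Igf1 lies before its second alternative first exon, and the start of the other, at 87859056, was not searched. The windows of Cux2 lie upstream of its exon 1, and exons 1 and 2 had mean counts of only 0.08 and 0. The starts used in these livers were not determined. A match describes letters and is not a measured binding site, and elements farther away were not searched.

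Igf1, the growth factor itself, was the most highly counted member in the control mice. Igf1, on chromosome 10 from 87859056 to 87937047, was between 417 and 889.6 CPM in the control mice with a median of 783, and between 325 and 514 CPM in the BIBB-515 mice with a median of 412. Control mice 2 and 3, at 534 and 417 CPM, were the lowest of their diet, and mouse 3 lay within the range of the BIBB-515 mice while mouse 2 was above it. The mean fell from 711 ± 192 to 408 ± 74.0 CPM (SD, n = 6 each), and the log2 fold change was -0.80 (standard error 0.18), or 0.574 of the control level. The call was kept in each fit without 1 mouse, with values from -0.91 to -0.72.

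Igfals, the partner of IGF1 in the blood, lies on chromosome 17 from 24878770 to 24882008. It was between 51.8 and 190.1 CPM with a median of 121 in the control mice and between 39.0 and 122 CPM with a median of 72.6 in the BIBB-515 mice. Control mice 2 and 3 were again the lowest at 77.7 and 51.8 CPM, BIBB-515 mouse 8 was the highest of its diet, and the groups overlapped. The log2 fold change was -0.72 (standard error 0.31), not past the threshold, and it passed without control mouse 3 (-0.87) and with 1 surrogate variable (-0.67).

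The binding proteins did not follow a common direction. Igfbp1, on chromosome 11 from 7197787 to 7202546, was between 121 and 350.4 CPM with a median of 181 in the control mice and between 60.2 and 265 CPM with a median of 133 in the BIBB-515 mice. The highest values were those of control mice 2 and 3, at 350.4 and 286 CPM, and of BIBB-515 mouse 11, at 265 CPM. Its log2 fold change was -0.51 (standard error 0.33). Igfbp2, on chromosome 1 from 72824480 to 72852471, was between 323 and 558 CPM with a median of 399 in the control mice and between 416 and 658 CPM with a median of 529 in the BIBB-515 mice. It was the member with a log2 fold change above 0, at 0.30 (standard error 0.16), and 4 of 6 BIBB-515 mice were above the control mean. Neither gene was past the threshold.

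**Figure D3:**
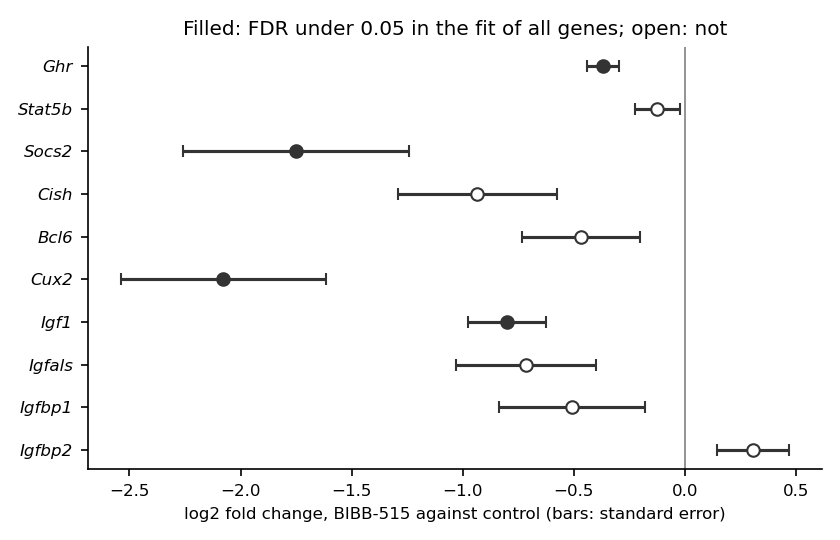
Log2 fold change of the 10 genes, BIBB-515 against control, with a standard error derived from the F statistic of edgeR's test as bars. Filled points are past an FDR of 0.05 over all 12481 tested genes (Ghr, Socs2, Cux2 and Igf1), and Igfbp2, at 0.30, is the point to the right of 0.

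Several members varied together between mice of the same diet as well as between the diets. As deviations of log2 CPM from the diet means over 12 mice, Socs2 had a Pearson r of 0.95 with Cish, 0.82 with Igf1 and -0.76 with Bcl6, Igf1 had one of 0.87 with Igfals, and Igfals had one of -0.90 with Igfbp1. Cux2 had one of 0.71 with Socs2 and 0.26 with Igf1, and Ghr one of 0.46 with Igf1. These values describe 12 libraries that share a scaling, in which control mice 2 and 3 and BIBB-515 mice 8 and 10 were the farthest from the mean of their diet in Socs2. Over control mice 1, 4, 5 and 6 alone the r of Socs2 turned its sign with Cish (-0.47) and Bcl6 (0.79). With Igf1 it was 0.73. Socs2 spanned only 74.2 to 76.4 CPM in these mice, so little can be read from these values. In the BIBB-515 mice without mice 8 and 10 the r of Socs2 was 0.96 with Cish and 0.83 with Igf1. Without mice 10 and 11, the farthest from the median of Bcl6, it was -0.91 with Bcl6. Mouse 8, which stood apart in Socs2, was still included there, so little can be read from this value.

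**Figure D4:**
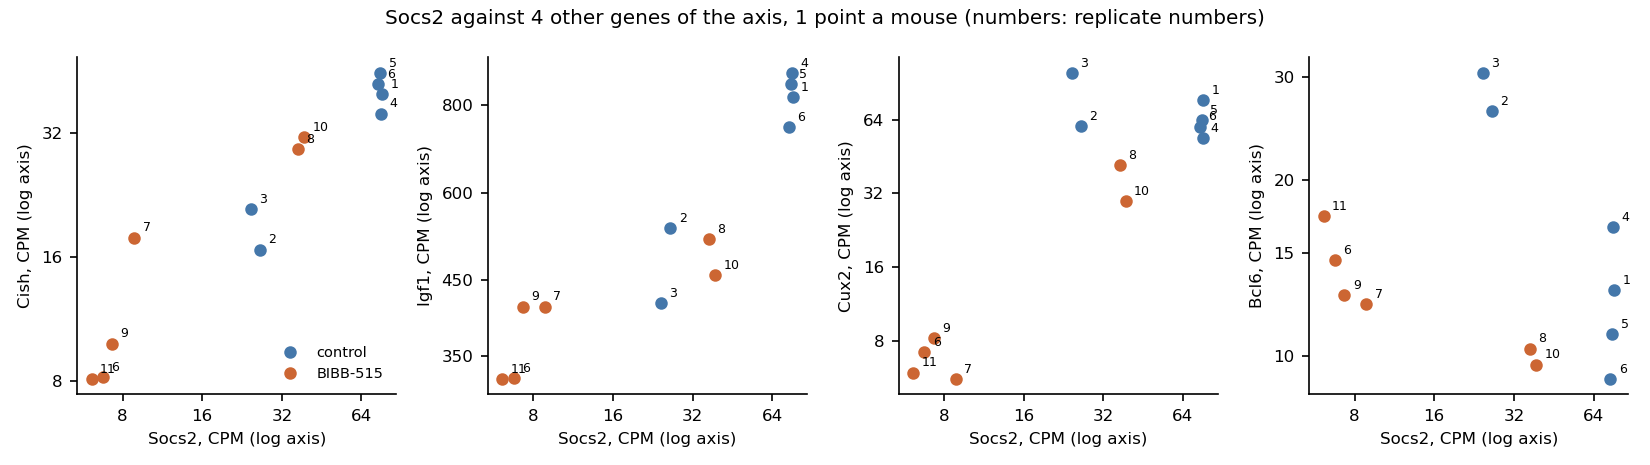
Socs2 in CPM on a log axis against Cish, Igf1, Cux2 and Bcl6 in CPM on a log axis, 1 point for each control mouse (blue) and BIBB-515 mouse (orange) with its replicate number. Control mice 2 and 3 lie apart from the other control mice in Socs2, Cish and Bcl6, and lie with the control mice in Cux2.

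Within a diet, 7 pairs of members were compared in each diet by Pearson's and Spearman's coefficient of log2 CPM with a two-sided exact permutation test, 14 values of each adjusted together. After adjustment 4 were past 0.05 by Pearson and 2 by Spearman, and 3 of the 4 were pairs with Socs2. Since Socs2 fell into separate clusters of 4 and 2 mice in both diets, its relation to another gene cannot be tested within a cluster, and no coefficient over the 6 mice of a diet is given. Igf1 and Igfals, neither of which split in this way in the BIBB-515 mice, had an r of 0.96 there (exact permutation p = 0.00833, adjusted 0.0292). Their rho was 0.94 (exact permutation p = 0.0167, adjusted 0.0778). Without mice 6 and 11, the farthest from the median of Igf1, the r was 0.99. BIBB-515 mice 8 and 10, which stood apart in Socs2, were the highest of their diet in both genes. No r of this pair was computed without them. In the control mice Igf1 and Igfals had an r of 0.84 (exact permutation p = 0.0292, adjusted 0.0817) and a rho of 0.66 (exact permutation p = 0.175, adjusted 0.408). The r was not kept without mice 2 and 3, the farthest from the median of Igf1, where it was -0.27. With 4 mice left over a narrower range of Igf1, no more is read from this value. Ghr and Igf1 had an r of 0.48 in the control mice and 0.41 in the BIBB-515 mice (exact permutation, adjusted p = 0.461 and 0.496), with rho of 0.03 and 0.20 (adjusted 1.0 and 0.833), and an r of -0.30 and -0.42 without the 2 mice farthest from the median of Ghr. For Igfbp1 and Igfbp2 the r was -0.26 and -0.34 (exact permutation, adjusted p = 0.604 and 0.549), with rho of 0.09 and -0.43 (adjusted 0.9902 and 0.587) and an r of -0.38 and -0.70 without 2 mice. Bcl6 and Cux2 had an r of 0.46 in the control mice (exact permutation, adjusted p = 0.461, rho 0.37, adjusted 0.633), which became -0.20 without mice 2 and 3. With BIBB-515, Cux2 was split like Socs2.

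Over the 11168 tested genes whose mean log2 CPM was 1 or more, the genes with the deviations most like those of Socs2 included Cish (r 0.95) and Ppfibp2 (0.93). Those most like Cux2 were Fam173b (0.87), Zbtb9 (0.85) and Plcl2 (0.82), where the r was higher in the BIBB-515 mice, in which Cux2 was split (0.91, 0.93 and 0.93), than in the control mice (0.59, -0.05 and 0.62). Those most like Igf1 were Cxcl11 (0.95), Pced1a (0.94) and Gm16551 (0.94). Of the genes named here Gm16551 alone was past an FDR of 0.05 between the diets, with 12.8 ± 6.12 CPM in the control mice and 5.25 ± 1.71 CPM in the BIBB-515 mice (SD, n = 6 each; log2 fold change -1.29, edgeR FDR 0.0171).

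The signaling genes around the receptor were read from a first list. This list and those below were written with some results of these data known. Nothing is therefore read from their shares against the background. In this list of 20 genes of growth hormone receptor signaling and of the liver transcription factors that act with it, 19 were tested, 1 was higher, 1 was lower and the median log2 fold change was -0.10, so that 10.5% of them were past the threshold against 13.7% of all tested genes. Prlr, the prolactin receptor, which is related to the growth hormone receptor and also signals through JAK2 and STAT5, fell from 271 ± 61.8 to 169 ± 30.4 CPM (SD, n = 6 each; log2 fold change -0.68, standard error 0.15, edgeR FDR 0.00846), with all 6 BIBB-515 mice below the control mean. Grb2, an adaptor protein of receptor tyrosine kinase signaling, rose from 42.4 ± 1.87 to 48.0 ± 2.30 CPM (SD, n = 6 each; log2 fold change 0.18, standard error 0.05, edgeR FDR 0.0349). The call of Grb2 was lost without control mouse 1 or without BIBB-515 mouse 6, 7, 8, 9 or 11, at 0.16 to 0.19. Jak2, the kinase of the receptor, is added here after its values were seen and had a log2 fold change of -0.13 (edgeR FDR 0.380).

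The wider IGF system was read from a second list. Of 19 listed receptors, binding proteins, adaptors and proteases 13 were tested, 0 were past an FDR of 0.05 in edgeR's test (13.7% of all tested genes were), 6 had an unadjusted p under 0.05, and DESeq2 called 1 and limma-voom 0. Their median log2 fold change was -0.16. The 2 with the highest level were Igfbp4, a binding protein, at 1448 ± 263 and 1190.4 ± 106 CPM (SD, n = 6 each; log2 fold change -0.28, edgeR FDR 0.117), and Insr, the insulin receptor, at 165 ± 18.2 and 159.9 ± 10.3 CPM (SD, n = 6 each; log2 fold change -0.05, edgeR FDR 0.717). Without control mouse 3, 2 genes of this list were past the threshold, Igfbp4 among them at -0.35.

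Genes with a sex bias in liver, many of which depend on the growth hormone pattern, rose and fell in both the female-biased and the male-biased list. Of 26 female-biased genes 25 were tested, 7 were lower and 3 higher, 40.0% against the 13.7% of all tested genes, with a median log2 fold change of -0.51. Cyp17a1, a steroid hydroxylase, fell from 433 ± 102 to 179.6 ± 60.3 CPM (SD, n = 6 each; log2 fold change -1.27, standard error 0.22, edgeR FDR 0.00185) and Nipal1, a magnesium transporter, from 44.4 ± 11.0 to 22.0 ± 5.80 CPM (SD, n = 6 each; log2 fold change -1.02, standard error 0.18, edgeR FDR 0.00258), both without overlap between the groups. A1bg, a plasma glycoprotein, had a log2 fold change equal to -3.37 (standard error 0.71, edgeR FDR 0.00669) and Sult3a1, a sulfotransferase, one of -1.15 (standard error 0.27, edgeR FDR 0.0128). A1bg ranged from 25.1 CPM in control mouse 3 to 828 CPM in control mouse 5, against 11.1 to 32.7 CPM in the BIBB-515 mice, and without control mouse 5 its log2 fold change was -2.43. With limma-voom it was -2.49 and with 1 surrogate variable -2.69, past the threshold in each of these fits.

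The female-biased genes that rose were Atp6v0d2, a proton pump subunit, Prom1, a membrane protein, and Sult2a1, a hydroxysteroid sulfotransferase. Atp6v0d2 rose from 9.17 ± 3.25 to 18.1 ± 3.24 CPM and Prom1 from 3.31 ± 1.06 to 7.24 ± 2.13 CPM (SD, n = 6 each; log2 fold changes 0.98 and 1.13, edgeR FDR 0.00530 and 0.00595). Sult2a1 was at 28.8 to 139 CPM in the control mice and 20.5 to 476 CPM in the BIBB-515 mice, 5 of them above the control mean (log2 fold change 2.09, standard error 0.58, edgeR FDR 0.0276). Its call was lost without control mouse 4 or 6 or BIBB-515 mouse 6, 10 or 11, at 1.84 to 1.99, and with limma-voom, at 1.80.

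Of 28 male-biased genes 23 were tested, 9 were lower and 4 higher, 56.5% against 13.7%, with a median log2 fold change of -0.32. As for the other lists, nothing is read from this share against the background. Egfr, the epidermal growth factor receptor, fell from 239.7 ± 54.8 to 87.6 ± 11.9 CPM (SD, n = 6 each; log2 fold change -1.45, standard error 0.14, edgeR FDR 1.13e-05) and Nudt7, a peroxisomal coenzyme A hydrolase, from 172 ± 14.5 to 106 ± 7.04 CPM (SD, n = 6 each; log2 fold change -0.70, standard error 0.07, edgeR FDR 1.76e-05). Slco1a1, an organic anion transporter, had a log2 fold change equal to -1.67 (standard error 0.26, edgeR FDR 0.000971) and Serpina1e, an alpha-1-antitrypsin paralog, one of -3.39 (standard error 0.53, edgeR FDR 0.000918), from 52.9 to 989 CPM in the control mice and 26.2 to 62.3 CPM in the BIBB-515 mice. The genes that rose were Gstp1, a glutathione transferase (0.77, edgeR FDR 0.000246), Mup20, a urinary protein (0.91, edgeR FDR 0.00294), Cyp7b1, an oxysterol hydroxylase (0.63, edgeR FDR 0.00320), and Cyp2d9, a steroid hydroxylase (0.67, edgeR FDR 0.0150), and each was above the control mean in all 6 BIBB-515 mice. Serpina1e, Mup20, Cyp2d9, Gstp1 and the sulfotransferases Sult2a1 and Sult3a1 have close relatives, and reads that map to several places were not counted. The tables of primary alignments, which include such reads, added at most 0.122% to the counts of these 6 genes, and each kept its call and direction there.

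**Figure D5:**
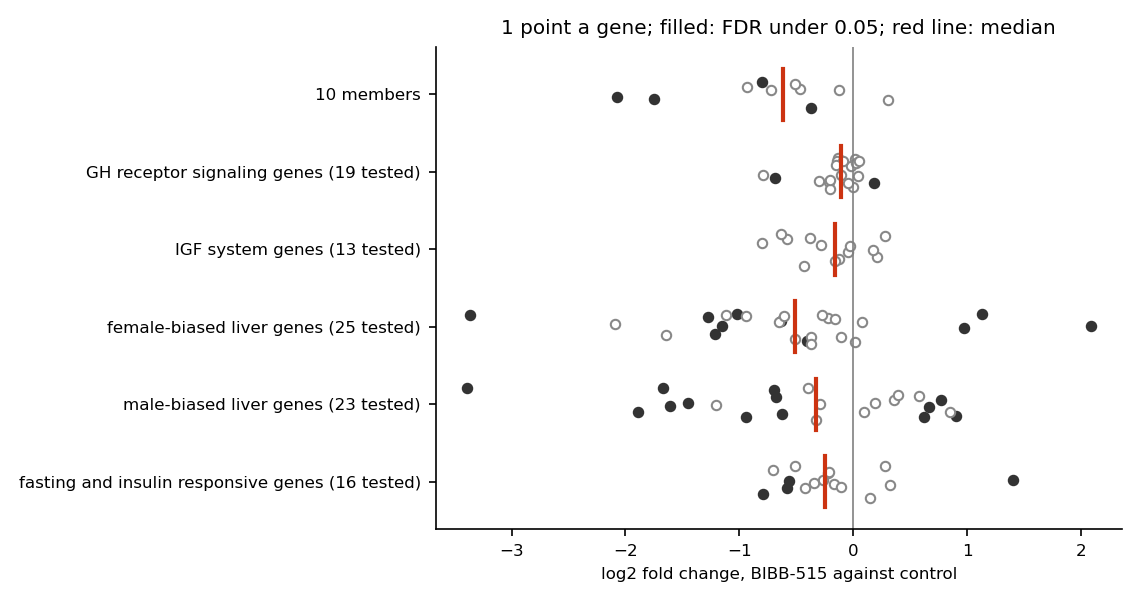
Log2 fold change, BIBB-515 against control, of the 10 members and of the tested genes of 5 lists, 1 point a gene, filled where the FDR was under 0.05, with the median of each list as a red line. The medians are -0.61 for the members, -0.10 and -0.16 for the signaling and IGF system lists, -0.51 and -0.32 for the female- and male-biased lists and -0.24 for the fasting and insulin list.

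Genes that respond to fasting and insulin were read beside Igfbp1 and Igfbp2, which respond to insulin themselves. Of 16 listed and tested genes 3 were lower and 1 higher, 25% against 13.7%, with a median log2 fold change of -0.24. Ppargc1a, a coactivator of gluconeogenic genes, was at 17.5 to 42.7 CPM in the control mice and 11.4 to 18.0 CPM in the BIBB-515 mice (log2 fold change -0.79, standard error 0.19, edgeR FDR 0.0139), with control mouse 2 the highest. Pck1, a gluconeogenic enzyme, had a log2 fold change of -0.56 (edgeR FDR 0.0188), with overlapping groups (2893 to 5760 against 2282 to 3080 CPM). In the study's own qPCR of livers from this experiment Pck1 was higher with BIBB-515, the opposite direction. The cause of this difference was not tested. Trib3, a pseudokinase of stress and insulin signaling, rose from 5.54 ± 1.40 to 14.7 ± 1.30 CPM (SD, n = 6 each; log2 fold change 1.40, standard error 0.13, edgeR FDR 1.25e-05), without overlap between the groups.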

How the data were processed

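The values are raw counts of reads per gene and per exon that the authors deposited for every mouse, which the file headers credit to featureCounts 1.6.3 with a UCSC annotation of mm10, unstranded, without multi-mapping reads. The labels list STAR 2.5.3a as a tool. The exon counts assign a read to every exon it overlaps. Column totals gave the depth, and same-diet libraries differed beyond sampling noise, with a smallest chi-square of 12.7 per degree of freedom over 30 pairs, so none was a repeat deposit.

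Genes reaching 1 CPM in 2 or more mice were kept, the share of samples (10%) being that of the authors' filter for human tissues, scaled by TMM and tested with edgeR 4.0.16 (R 4.3.3; glmQLFit, glmQLFTest, diet as the only term, Benjamini-Hochberg over all tested genes). The standard error of a log2 fold change was taken as its absolute value divided by the square root of the F statistic. The common biological coefficient of variation was 0.143. Exon usage was tested with diffSpliceDGE. Alternatives were DESeq2 1.42.0, limma-voom (limma 3.58.1), upper-quartile scaling, no filter, 1 CPM in 6 samples, tables of primary alignments, 1 surrogate variable (sva 3.50.0) and each mouse left out. The gene and exon tests were tested on simulated data. Mice are replicates as labelled.

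The members and all gene lists were chosen with earlier results of these data known. Named are the 10 members, of each list the genes past the threshold, at most 4 in each direction by lowest p, or otherwise the 2 with the highest CPM, and the 3 genes most like Socs2, Cux2 and Igf1 by the deviations of log2(CPM + 0.5). A few genes under this rule are not reported here but remain counted. Transcript tables were not used here.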

Additional observations from a re-analysis of the deposited data

Results flagged for a closer look

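Of 68 groups of 6 mice examined, over the counted reads, the 10 members and the other genes named from the lists, 2 had a mouse far from the others of its diet, against 3.4 expected by chance at 1 in 20. No member of the growth hormone and IGF axis was among them. The rule looks for 1 mouse apart from all others, so it cannot flag 2 mice that stand apart together. Control mice 2 and 3 and BIBB-515 mice 8 and 10 in Socs2 are such cases. A1bg reached 828 CPM in control mouse 5, with a next highest control value of 309.8 CPM, a gap of 0.645 of the range of the diet. Ppargc1a reached 42.7 CPM in control mouse 2, with 25.2 CPM as the next highest, a gap of 0.694 of the range. Control mouse 2 was also the highest of its diet for Igfbp1, at 350.4 CPM, and the lowest for Cish, at 16.6 CPM.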

How the results depend on the processing

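Ghr, Cux2 and Igf1 were past the threshold in all alternatives, no member changed direction in any of them, and 4 members were past it in each alternative that kept 12 mice, except the fit with 1 surrogate variable, with 6. Leaving out 1 mouse gave 3 to 5 members, 1199 to 1865 genes of all, 1 to 2 of the signaling list, 0 to 2 of the IGF system list, 8 to 12 female-biased, 11 to 13 male-biased and 3 to 4 fasting and insulin genes. The signaling list had 1 gene past the threshold with no filter on low counts, and the IGF system list had 1 with DESeq2 and 1 with the surrogate variable. Over all genes the count was 1489 to 2407 among the alternatives that kept every mouse. The exon and correlation counts did not change, and the causes of the other shifts were not tested. No paired analysis was possible because each mouse was on 1 diet and the replicate numbers do not pair the mice. Depth did not limit the members, which had at least 145 counts in every mouse, and the errors given cover the spread between 6 mice a diet.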
